A study of Mus musculus with 6 samples.

Results

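Sterol and fatty acid synthesis was followed through 35 genes of the 32285 counted in each library. Members were fixed by name: 18 enzymes of the sterol route, 6 genes of sterol sensing and transfer, and 11 enzymes that make, elongate or desaturate fatty acids. All libraries hold spleen cells of wild-type C57BL/6 mice that were 6 weeks old at the start and received ND or MCDHFD for 7 weeks, with 3 libraries per diet. The labels present the MCDHFD animals as a model of MASH, a fatty liver disease with inflammation, and some sample titles name that diet MCD; neither ND nor MCDHFD is spelled out there. The study as a whole concerns CD8 T cells of the spleen and liver fibrosis. No label ties a library to a named animal, so p-values measure the spread between libraries, which may be partly technical.

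Cells build cholesterol from acetyl-CoA through mevalonate, isoprenoid phosphates, squalene and lanosterol. When sterol in the endoplasmic reticulum is low, Scap escorts the SREBP transcription factors (genes Srebf1 and Srebf2) to the Golgi, where proteases release their active part, and genes of this route rise together. When sterol is plentiful, the Insig proteins hold Scap back, while oxidised sterols activate the liver X receptors, which raise efflux genes such as Abca1 and also raise Srebf1 and Scd1. Fatty acid synthesis starts from the same acetyl-CoA, and dividing lymphocytes draw on both routes for new membrane.

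Counts of unique molecules (UMIs) per cell barcode were summed over 8 cell classes in each library and scaled to counts per 1000000 UMIs of that class (CPM). Cells had at least 1000 UMIs and at most 10% mitochondrial UMIs, which left 3278 to 6625 cells per library with a median of 4462 to 6186 UMIs. B cells had at least 2 Cd79a UMIs. CD8 and CD4 T cells had Cd3e with Cd8b1 or Cd4, NK cells Ncr1 without Cd3e, and monocytes and macrophages Csf1r. Neutrophils had Csf3r with at least 5 S100a8 UMIs, dendritic cells Flt3 with at least 3 H2-Aa UMIs, and erythroid cells Klf1. Cells meeting several of these definitions, 6.17% to 15.9% of gated cells, were left out, and libraries shared at most 18 kept barcodes. Of 5 marker genes per class that no definition used, the sums for B cells, NK cells, monocytes and macrophages, neutrophils and dendritic cells were highest in their own class in every library. The T cell markers were shared by both T cell classes. The erythroid markers of ND replicate 2 and MCDHFD replicate 3 were higher in monocytes and macrophages, and those of MCDHFD replicate 1 in neutrophils, than in erythroid cells.

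ND replicate 2 and MCDHFD replicate 3 stood apart. Both were deposited as filtered barcode lists written by Cell Ranger 7.2.0, per the file headers, while the other 4 libraries hold unfiltered lists written by version 9.0.1. The former held 21956506 and 21259837 UMIs in all, the latter 45223393 to 62238012. Every diet test therefore carried the list form as a second term, and values within each form are given where the text rests on them. The 4 unfiltered lists were not alike either. Of the 4962 kept barcodes of ND replicate 3, the list of MCDHFD replicate 1 held 4962 and that of MCDHFD replicate 2 held 4951. Of the 6548 kept barcodes of ND replicate 1, the same lists held 2429 and 2367. The diet models had no term for this difference.

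The proximal promoters of sterol enzymes are shown first because 7 of these 18 genes were called lower on MCDHFD in B cells, while 11 were not called. RefSeq promoter stretches of 250 bases before the start (build GRCm38.p6) were found for 28 of the 35 members. No stretch was found for Fdps, Fdft1, Sqle, Stard4, Scd1, Scd2 or Fads1. Capitals mark matches to the CCAAT box (CCAAT on either strand, so ATTGG when reversed) and, in Hmgcs1, to the sterol regulatory element letters TCACNCCAC. Hmgcs1 makes HMG-CoA, the precursor of mevalonate, and its stretch lies at chr13:119690101-119690350, plus strand. Idi1, the isopentenyl diphosphate isomerase, follows at chr13:8885356-8885605, plus strand. Cyp51, the lanosterol demethylase, is at chr5:4104698-4104947, minus strand, and Msmo1, the methyl sterol oxidase that acts after it, at chr8:64733579-64733828, minus strand.
Hmgcs1: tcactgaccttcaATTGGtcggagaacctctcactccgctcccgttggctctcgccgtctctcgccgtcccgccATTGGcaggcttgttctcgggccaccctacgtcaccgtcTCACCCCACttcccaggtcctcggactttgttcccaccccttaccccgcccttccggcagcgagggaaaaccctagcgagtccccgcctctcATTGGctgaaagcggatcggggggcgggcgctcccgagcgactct
Idi1: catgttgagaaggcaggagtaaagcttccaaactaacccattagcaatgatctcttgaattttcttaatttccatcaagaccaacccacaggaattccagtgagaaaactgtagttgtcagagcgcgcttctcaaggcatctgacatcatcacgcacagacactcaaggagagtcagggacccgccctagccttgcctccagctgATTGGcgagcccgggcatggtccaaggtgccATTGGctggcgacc
Cyp51: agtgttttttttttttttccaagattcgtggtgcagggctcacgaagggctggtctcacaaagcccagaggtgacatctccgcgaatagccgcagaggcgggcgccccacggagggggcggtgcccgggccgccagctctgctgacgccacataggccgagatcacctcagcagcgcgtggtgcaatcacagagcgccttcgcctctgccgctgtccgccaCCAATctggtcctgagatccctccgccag
Msmo1: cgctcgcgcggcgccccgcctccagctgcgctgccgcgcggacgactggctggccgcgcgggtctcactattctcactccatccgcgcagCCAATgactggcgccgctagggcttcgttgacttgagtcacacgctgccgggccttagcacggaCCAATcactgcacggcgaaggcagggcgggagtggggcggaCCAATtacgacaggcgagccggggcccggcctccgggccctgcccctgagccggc

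A CCAAT match was present in 14 of 15 sterol enzymes with a stretch (93.3%), with Acat2 as the exception, in 4 of 8 fatty acid enzymes (50%), and in 37.5% of 27025 genes. In the 4 sequences printed, the match nearest to the start began 45 bases before it in Hmgcs1, 14 in Idi1, 29 in Cyp51 and 55 in Msmo1. TCACNCCAC was matched on either strand in 1 of 28 members, Hmgcs1, where it began 137 bases before the start, and in 1.22% of all genes. It did not overlap a CCAAT match there. The E-box CACGTG, which reads the same on both strands, was matched in 6 of 28 members and 6.86% of genes. These matches describe letters only, and no binding was measured.

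In B cells, the most numerous class with 1282 to 3964 cells per library, sterol enzymes were lower on MCDHFD while fatty acid enzymes were not. Of 18 sterol enzymes, 7 fell and 0 rose, and 17 of 18 fitted differences were negative. The median fitted log2 difference of these enzymes was -0.45, beside 0.04 over all 13731 genes tested. Over all 35 members 9 were called, and 5 without ND replicate 3. Lower calls made up 3.36% of all genes tested in B cells, and higher calls 3.07%. Sums over a class cannot tell fewer expressing cells from fewer molecules per cell.

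Among enzymes from HMG-CoA to farnesyl diphosphate, Idi1 stood at 13.7, 15.3 and 14.7 CPM in ND replicates 1 to 3 and at 6.37, 6.68 and 6.63 CPM in MCDHFD replicates 1 to 3. The diets did not overlap, and the 3 libraries of each diet lay close together. Idi1 fell by 1.15 on the log2 scale (SE 0.11, n = 3 libraries per diet, edgeR quasi-likelihood test with Benjamini-Hochberg adjusted p = 0.00135). Fdps, which makes farnesyl diphosphate, stood at 22.2, 28.8 and 20.3 CPM on ND and 9.73, 10.5 and 16.4 CPM on MCDHFD. Its highest MCDHFD value, in the filtered library, remained below the lowest ND value, and it fell by 1.01 (SE 0.10, edgeR adjusted p = 0.00161). Hmgcs1 was at 18.4, 19.2 and 18.7 CPM against 12.7, 12.9 and 11.3 CPM and fell by 0.60 (SE 0.09, edgeR adjusted p = 0.00757). Mvk, the mevalonate kinase, was at 4.96, 8.46 and 4.91 CPM against 2.57, 3.39 and 4.88 CPM, so that the diets nearly touched. Mvk fell by 0.75 (SE 0.17, edgeR adjusted p = 0.0405), but was not called without ND replicate 1 (edgeR adjusted p = 0.104), ND replicate 3 (0.127), MCDHFD replicate 1 (0.155) or MCDHFD replicate 2 (0.0771). Hmgcs1 was not called without ND replicate 3 (0.0573).

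From squalene onward, 3 enzymes fell in B cells. Sqle, the squalene epoxidase and a rate-limiting step, was at 6.51, 7.10 and 6.61 CPM on ND and 2.96, 3.03 and 3.84 CPM on MCDHFD. It fell by 1.08 (SE 0.16, edgeR adjusted p = 0.00729), without overlap. Cyp51 was at 18.7, 15.6 and 17.1 CPM against 10.2, 8.61 and 9.07 CPM and fell by 0.91 (SE 0.11, edgeR adjusted p = 0.00346). Msmo1 was at 18.2, 14.8 and 15.5 CPM against 9.34, 8.40 and 8.89 CPM and fell by 0.90 (SE 0.12, edgeR adjusted p = 0.00526). For Cyp51 and Msmo1 every MCDHFD library was also below every ND library. Fdft1, the squalene synthase, was not called: it was at 8.81, 14.1 and 9.17 CPM against 5.98, 8.09 and 9.07 CPM, with overlap, a log2 difference of -0.44 (SE 0.15) and adjusted p = 0.113. The other 10 sterol enzymes were not called either, and their log2 differences ran from -0.46 in Pmvk to 0.04 in Acat2, the cytosolic thiolase at the head of the route.

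Within the 4 unfiltered libraries all 18 sterol enzymes had a lower mean on MCDHFD, and between the 2 filtered libraries 14 of 18 did. With diet as the only term, however, edgeR called 0 of the 12978 genes tested in B cells, members included (8 members had an unadjusted p under 0.05), and Idi1 kept a log2 difference of -1.15 with adjusted p = 0.133. Cell cycle markers moved in the same direction in B cells, from 112, 143 and 114 CPM in sum on ND to 76.3, 76.2 and 71.3 CPM on MCDHFD (5 of 5 markers detected). In B cells without a Mki67 UMI those sums were 64.2, 64.2 and 61.8 CPM on ND and 69.3, 64.4 and 56.6 CPM on MCDHFD. There, Idi1, Fdps, Sqle, Msmo1, Cyp51, Hmgcs1, Mvk and Srebf2 were lower and 0 members higher, by 0.43 (Srebf2) to 1.17 (Idi1) on the log2 scale, against 4.55% of 13538 genes called in either direction. In Fcer2a-positive B cells without Mki67 or Cd93 UMIs, a follicular marker set, 7 members were lower and Scd1 was higher, against 5.36% of 12354 genes called. Both of these comparisons were added after the values in B cells had been seen.

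**Figure D1:**
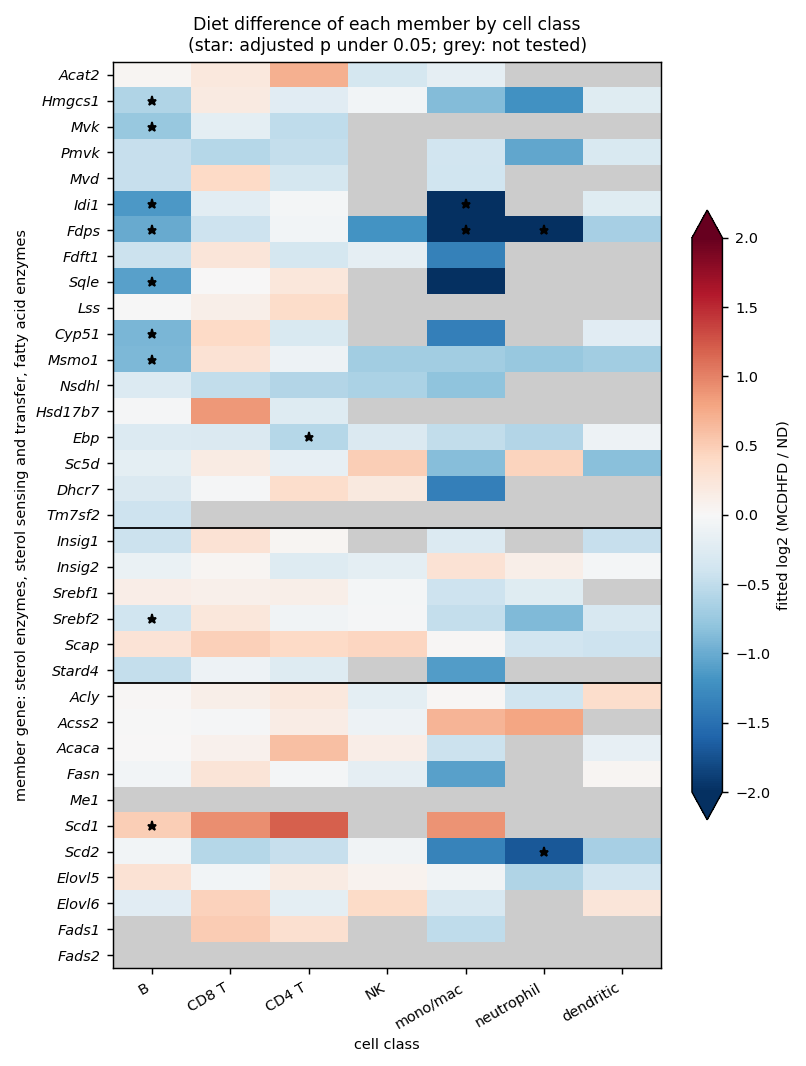
Fitted log2 difference between MCDHFD and ND for each of the 35 members (rows, in the order sterol enzymes, sterol sensing and transfer, fatty acid enzymes) in the 7 cell classes that could be tested (columns); stars mark an edgeR adjusted p under 0.05 and grey marks genes not tested. Sterol enzymes hold 7 stars in B cells, 2 in monocytes and macrophages, and 1 each in neutrophils (Fdps) and CD4 T cells (Ebp). Their fitted differences were negative for 17 of 18 tested in B cells, 14 of 14 in monocytes and macrophages and 5 of 6 in neutrophils. They were negative for 8 of 8 in dendritic cells, 7 of 9 in NK cells, 13 of 17 in CD4 T cells and 7 of 17 in CD8 T cells. Colours saturate at 2 in either direction.

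Among the sensing and transfer genes in B cells, 1 of 6 was called. Srebf2, which encodes the SREBP that mainly drives sterol genes, was at 103, 104 and 113 CPM on ND and 93.2, 85.9 and 67.0 CPM on MCDHFD. It fell by 0.40 (SE 0.09, edgeR adjusted p = 0.0440), without overlap, and was not called without ND replicate 3 (edgeR adjusted p = 0.161), MCDHFD replicate 1 (0.0605) or MCDHFD replicate 2 (0.179). Stard4, a soluble sterol carrier, was at 11.5, 11.0 and 10.4 CPM against 8.50, 8.72 and 6.10 CPM. Its groups did not overlap, but its log2 difference of -0.47 (SE 0.13) missed the threshold with edgeR adjusted p = 0.0692. Insig1, itself a sterol-repressed brake on SREBP release, was at 6.83, 11.9 and 7.97 CPM against 4.98, 5.90 and 9.24 CPM, a log2 difference of -0.43 (SE 0.14, edgeR adjusted p = 0.106). In this gene the 2 filtered libraries were the highest of their diets. Srebf1, which mainly drives fatty acid genes, showed the same split by list form, with 21.3 CPM in ND replicate 2 and 23.4 CPM in MCDHFD replicate 3 against 9.84 to 11.9 CPM elsewhere, and a diet difference of 0.13 (SE 0.10, adjusted p = 0.432). Insig2 and Scap, the escort of SREBP, had differences of -0.13 and 0.27 that were not called.

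Of the 11 fatty acid enzymes, 8 could be tested in B cells, and their median log2 difference was 0.00. Scd1, which places the double bond in oleate and palmitoleate, was the only one called. It was at 191, 209 and 212 CPM on ND and 316, 326 and 232 CPM on MCDHFD, without overlap, and rose by 0.49 (SE 0.12, edgeR adjusted p = 0.0434). The rise was 0.67 among unfiltered and 0.15 between filtered libraries, and the call was lost without ND replicate 1 (adjusted p = 0.134), ND replicate 3 (0.191), MCDHFD replicate 1 (0.158) or MCDHFD replicate 2 (0.199). Its close relative Scd2 did not follow, at 32.7, 31.0 and 35.7 CPM against 42.1, 36.5 and 18.7 CPM (log2 difference -0.05, SE 0.15, adjusted p = 0.876). Acly, Acaca and Fasn, which supply acetyl-CoA, carboxylate it to malonyl-CoA and build palmitate, had log2 differences of 0.03, 0.01 and -0.05, each with an SE between 0.09 and 0.13. Elovl5, an elongase of polyunsaturated fatty acids, differed by 0.29 (SE 0.09, adjusted p = 0.102). Fads1, Fads2 and Me1 were too sparse in B cells to test, with at most 11 UMIs of any of them in a library.

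Of 52 neighbouring pathway genes outside the members, 45 were tested in B cells, of which 3 rose and 0 fell. Abca1, the cholesterol efflux pump and a target of the liver X receptors, was at 64.8, 58.0 and 72.4 CPM on ND and 146, 127 and 103 CPM on MCDHFD, and rose by 0.93 (SE 0.09, edgeR adjusted p = 0.00141). It was also higher, and called, in CD4 T cells (1.36, SE 0.32, adjusted p = 0.0232), NK cells (0.99, SE 0.23, 0.0135) and neutrophils (1.60, SE 0.45, 0.0176). With diet as the only term, Abca1 was not called in B cells (edgeR adjusted p = 0.366) or CD4 T cells (0.773). The same held in NK cells (0.487) and neutrophils (0.0506). DESeq2 did not call it in CD4 T cells (adjusted p = 0.0574). The CD4 call was lost without ND replicate 1 (edgeR adjusted p = 0.159), ND replicate 2 (0.0544), MCDHFD replicate 1 (0.0768) or MCDHFD replicate 3 (0.0586), the NK call without ND replicate 1 (0.148), ND replicate 3 (0.178) or MCDHFD replicate 2 (0.144), and the neutrophil call without ND replicate 1 (0.0966). Abca1 levels did not overlap between the diets in CD8 T cells either, at 16.6, 14.0 and 16.5 CPM against 27.2, 19.97 and 22.0 CPM, where it was not called. The other genes called in B cells were Mbtps2, a protease that frees SREBP (0.33, SE 0.07), and Hacd3, a dehydratase of fatty acid elongation (0.38, SE 0.09), and neither was called without ND replicate 1, ND replicate 3, MCDHFD replicate 1 or MCDHFD replicate 2 (edgeR adjusted p from 0.0979 to 0.199). In CD8 T cells 1 of 44 such genes rose, in CD4 T cells 2 of 43 and in NK cells 2 of 39. Besides Abca1 these were Mlxip, a glucose-sensing transcription factor, in CD8 T cells (0.54, SE 0.11, edgeR adjusted p = 0.0166), Fntb, a subunit of protein farnesyltransferase, in CD4 T cells (0.55, SE 0.15, 0.0443), and Pdss2, which builds the side chain of coenzyme Q, in NK cells (0.86, SE 0.23, 0.0278). Each of these calls was lost without some single libraries: ND replicate 1, ND replicate 3 or MCDHFD replicate 2 for Mlxip, any of the 6 for Fntb, and any but ND replicate 2 and MCDHFD replicate 3 for Pdss2. The 5 genes listed on the sterol excess side (Abca1, Abcg1, Mylip and the liver X receptor genes Nr1h2 and Nr1h3) had a median log2 difference of 0.41 in B cells, beside 0.04 over all genes. Of these 5, only Abca1 was called there, and 4 were not called.

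Monocytes and macrophages showed the largest fitted falls among the classes for Idi1 and Sqle, on fewer cells (133 to 482 per library). Of 14 sterol enzymes tested, 2 fell and all 14 had a negative fitted difference, with a median of -0.86 beside -0.02 over 10282 genes. Lower calls made up 0.418% of genes in this class and higher calls 0.253%. Idi1 was at 22.0, 27.9 and 24.8 CPM on ND and 5.76, 6.97 and 5.40 CPM on MCDHFD and fell by 2.02 (SE 0.25, edgeR adjusted p = 0.0258). Fdps was at 71.9, 71.9 and 31.1 CPM against 12.04, 13.5 and 11.7 CPM and fell by 2.20 (SE 0.32, edgeR adjusted p = 0.0373). In both genes the lowest ND library was more than 2 times the highest MCDHFD library. Without any 1 of ND replicate 1, ND replicate 2 or the 3 MCDHFD libraries, neither gene was called (adjusted p from 0.0648 to 0.0982 for Idi1 and 0.113 to 0.135 for Fdps), while their differences stayed between -2.32 and -1.78. The same held with diet as the only term (adjusted p = 0.0605 and 0.0932).

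Other sterol enzymes of monocytes and macrophages missed the threshold with large differences. Sqle was at 7.49, 14.0 and 8.28 CPM on ND and 0.786, 2.09 and 2.70 CPM on MCDHFD, resting on 13 to 16 UMIs per ND library and 3 to 9 per MCDHFD library (log2 difference -2.42, SE 0.49, adjusted p = 0.0892). Cyp51 was at 27.5, 17.2 and 18.1 CPM against 7.86, 10.2 and 7.2005 CPM (-1.36, SE 0.27, adjusted p = 0.0892). Hmgcs1 was at 29.4, 30.1 and 18.6 CPM against 13.4, 16.3 and 12.6 CPM (-0.87, SE 0.25, adjusted p = 0.206). None of these genes overlapped between the diets. Of the 9 fatty acid enzymes tested, 3 had an unadjusted p under 0.05 and none passed the adjusted threshold in edgeR. Scd2 was at 33.9, 21.5 and 35.2 CPM against 15.2, 8.60 and 16.2 CPM (-1.34, SE 0.31, adjusted p = 0.135). Acss2, which activates acetate, was at 11.98, 9.66 and 17.6 CPM against 26.7, 20.7 and 18.9 CPM (0.68, SE 0.25, adjusted p = 0.306). Stard4 was at 18.0, 12.9 and 13.5 CPM against 7.59, 6.74 and 7.2005 CPM, also without overlap (-1.12, SE 0.28, adjusted p = 0.162). Other RNA moved in this class. Erythroid markers summed to 719, 3498 and 3379 CPM on ND and 362, 425 and 2742 CPM on MCDHFD. Cell cycle markers summed to 426, 347 and 84.4 CPM against 112, 107 and 64.8 CPM, and neutrophil markers to 2798, 729 and 89.5 CPM against 127, 254 and 707 CPM (5 of 5 genes detected in each list). Their part in the falls was not tested.

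**Figure D2:**
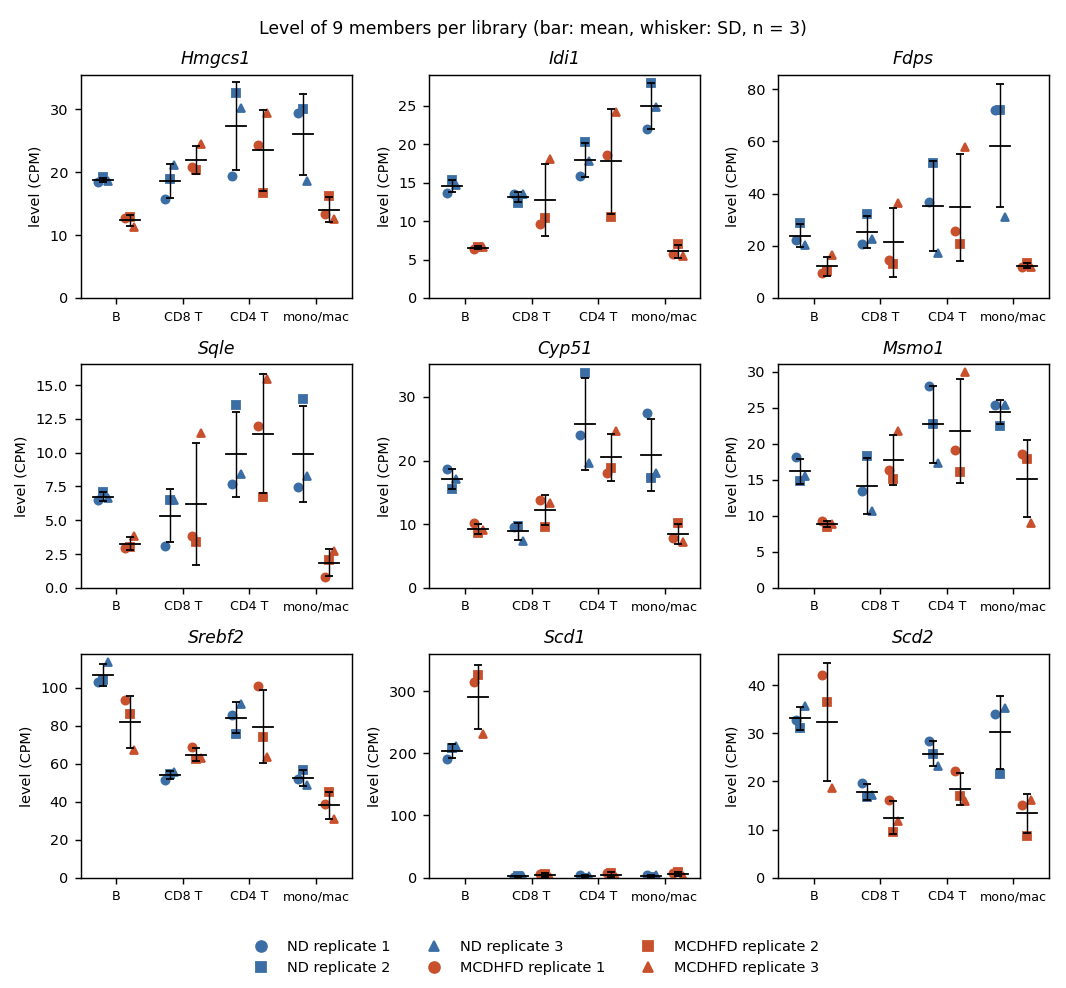
Level in CPM (vertical axis, linear, from 0) of 9 members in B cells, CD8 T cells, CD4 T cells and monocytes and macrophages, with 1 point per library, the mean as a bar and the SD as a whisker (n = 3). In B cells Idi1 lies between 13.7 and 15.3 CPM on ND and between 6.37 and 6.68 CPM on MCDHFD, whereas in both T cell classes its diets overlap.

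In CD8 T cells (267 to 738 cells per library) edgeR and DESeq2 each called 0 of 32 members, 6 had an unadjusted p under 0.05, and the median log2 difference of the 17 sterol enzymes tested was 0.12 beside 0.02 over all genes. Higher and lower calls made up 1.03% and 1.56% of the 10775 genes tested there. Idi1 was at 13.5, 12.4 and 13.6 CPM on ND and 9.62, 10.4 and 18.1 CPM on MCDHFD. The filtered MCDHFD library was the highest and the unfiltered ones the lowest of the 6. Fdps behaved alike, with 20.8, 32.3 and 22.7 CPM against 14.7, 12.9 and 36.5 CPM. With the 4 unfiltered libraries alone 4 members were called in CD8 T cells, 3 lower and 1 higher. Without MCDHFD replicate 3 the calls were again 3 lower and 1 higher, without ND replicate 2 they were 1 lower and 2 higher, and without MCDHFD replicate 1 there was 1, lower. Genes of any kind called numbered 875 of 10682 with the unfiltered libraries and 902 of 11227 without MCDHFD replicate 3. They numbered 827 of 11368 without ND replicate 2 and 207 of 10461 without MCDHFD replicate 1. Srebf2 levels in CD8 T cells were higher on MCDHFD without overlap (51.6, 54.4 and 55.7 CPM against 68.7, 62.7 and 63.0 CPM; log2 difference 0.23, not called).

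In CD4 T cells (265 to 456 cells) 1 of 32 members was called, against 2.99% of genes lower and 1.33% higher. Ebp, the sterol isomerase, was at 44.8, 57.7 and 35.1 CPM on ND and 25.2, 27.3 and 39.1 CPM on MCDHFD, with overlap. It fell by 0.58 (SE 0.15, edgeR adjusted p = 0.0373). DESeq2 did not call Ebp (adjusted p = 0.329), nor did edgeR without any 1 library other than ND replicate 2 (adjusted p from 0.0512 to 0.226). Of the 17 sterol enzymes tested there 13 had a negative difference, with a median of -0.22 on the log2 scale beside 0.00 over all genes. Their mean was lower on MCDHFD for 14 of 18 within the 4 unfiltered libraries and for 10 of 18 between the 2 filtered ones. CD4 T cells with a Mki67 UMI made up 5.86%, 7.55% and 5.44% of the class on ND and 2.19%, 2.77% and 2.20% on MCDHFD. In CD8 T cells the shares were 2.54%, 1.87% and 1.41% against 0.542%, 1.13% and 0.380%. The part of dividing cells in these differences was not tested. Scd1 in T cells was 0 to 7.34 CPM per library. B cell markers in CD4 T cells summed to 45.2, 19.0 and 68.9 CPM on ND and 92.1, 83.4 and 11.1 CPM on MCDHFD, and the Scd1 levels of 3.62, 0 and 2.67 CPM and of 6.90, 7.34 and 0.483 CPM were low in the same libraries. Whether Scd1 in T cells came from B cell RNA was not tested.

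NK cells had 20 members with enough counts to test, on 33 to 226 cells per library, and dendritic cells 18, on 28 to 77 cells. EdgeR and DESeq2 each called 0 in both classes, where 1 member each had an unadjusted p under 0.05. Calls among all genes were 1.94% higher and 2.35% lower in NK cells, and 0.564% higher and 0.607% lower in dendritic cells. All 8 sterol enzymes tested in dendritic cells had a negative difference, with a median of -0.28. Dendritic cells with a Mki67 UMI made up 22.9%, 27.5% and 17.9% of the class on ND and 1.85%, 10.4% and 10.7% on MCDHFD. Their part in these differences was not tested. Fdps in dendritic cells was at 85.0, 103 and 79.6 CPM on ND and 32.8, 43.2 and 116 CPM on MCDHFD, so the filtered MCDHFD library was the highest of all 6. In NK cells Fdps was at 15.7, 10.9 and 12.4 CPM against 4.71, 6.31 and 13.6 CPM, again with the filtered MCDHFD library among the highest. The NK sums of ND replicate 2 and MCDHFD replicate 3 held 274913 and 147069 UMIs of all genes. Their Fdps values therefore rest on very few molecules, too few to rank the libraries.

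Neutrophils had 14 members with enough counts, 2 of which fell, in a class where 12.7% of 7269 genes were called lower and 14% higher. Fdps was at 44.3, 47.8 and 26.1 CPM on ND and 12.4, 2.66 and 12.6 CPM on MCDHFD and fell by 2.25 (SE 0.42, edgeR adjusted p = 0.00194). Scd2 was at 14.7, 9.29 and 4.83 CPM against 4.39, 2.66 and 3.15 CPM and fell by 1.70 (SE 0.60, edgeR adjusted p = 0.0480). Without ND replicate 1 edgeR called 0 members there (Fdps -1.86, adjusted p = 0.0574; 1 member had an unadjusted p under 0.05), and without MCDHFD replicate 1 or MCDHFD replicate 2 it called 1, lower. Without ND replicate 2 it called 3 higher and 1 lower, without MCDHFD replicate 3 it called 3 higher and 3 lower, and with the 4 unfiltered libraries alone it called 3 higher and 2 lower. In those fits 2245 of 8105, 2302 of 7877 and 2292 of 7017 genes of any kind were called. Scd2 itself was not called without ND replicate 2 (edgeR adjusted p = 0.0546) or MCDHFD replicate 3 (0.0503). MCDHFD values of Scd2 rest on 1 to 6 UMIs per library. Fdps also rests on few molecules in MCDHFD replicates 2 and 3, whose neutrophil sums held 1129218 and 317906 UMIs of all genes. Neutrophils with a Mki67 UMI made up 17.2%, 18.3% and 13.3% of the class on ND and 7.41%, 3.81% and 6.15% on MCDHFD. Cell cycle markers in neutrophils summed to 474, 458 and 538 CPM against 311, 119 and 261 CPM (5 of 5 genes detected), and their part in the falls was not tested. Of 36 other pathway genes tested in neutrophils, 4 rose and 5 fell. The efflux genes Abca1 and Abcg1 and Mylip, a ubiquitin ligase for lipoprotein receptors, rose by 1.60, 1.22 and 1.27 (SE 0.45, 0.24 and 0.24), calls that were lost without ND replicate 1 (edgeR adjusted p = 0.0966, 0.0569 and 0.0625), with Mylip at 23.8, 37.1 and 34.8 CPM against 77.6, 80.6 and 72.3 CPM. With cells of several definitions kept, Abcg1 (0.65, edgeR adjusted p = 0.0832) and Mylip (0.70, 0.0893) were not called. Tkt, the transketolase of the pentose phosphate pathway, was at 644, 780 and 658 CPM against 312, 227 and 371 CPM and fell by 1.30 (SE 0.23, edgeR adjusted p = 0.00158). The other genes called were Mlxip, which rose, and Elovl7, Tecr, Hsd17b12 and G6pdx, which fell. Mlxip was not called without ND replicate 1 (edgeR adjusted p = 0.0681). DESeq2 did not call Hsd17b12 (adjusted p = 0.133) or G6pdx (0.126).

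**Figure D3:**
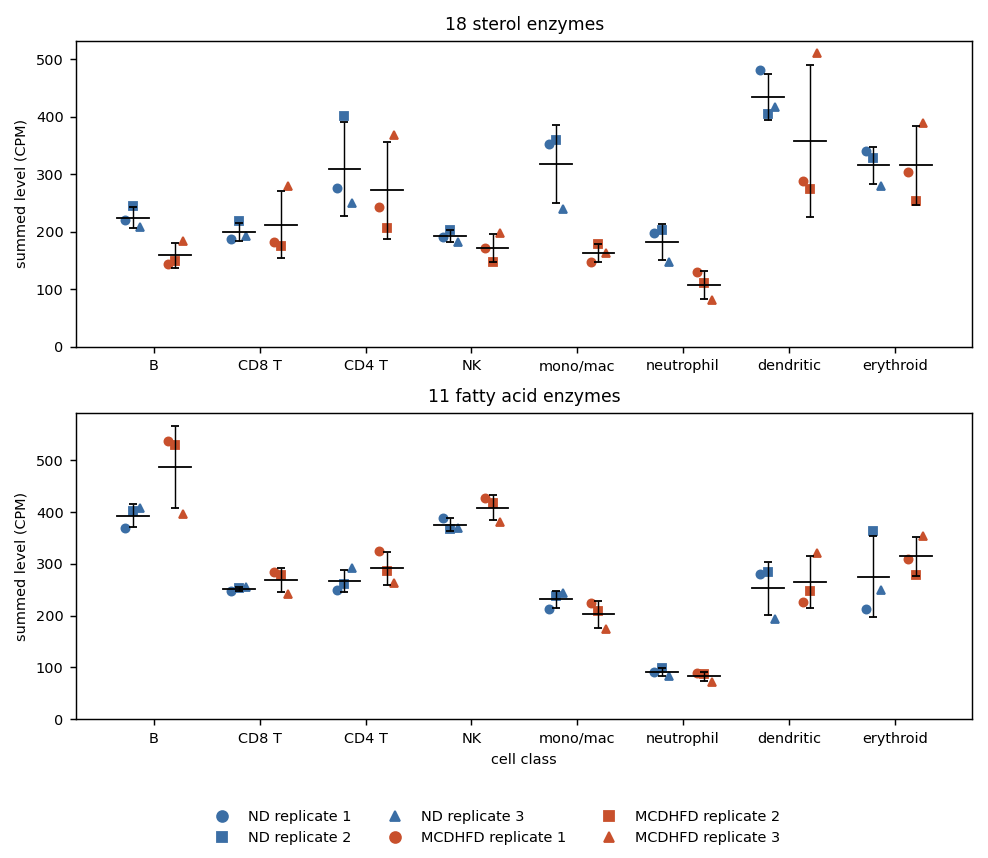
Summed level in CPM (vertical axis, from 0) of the 18 sterol enzymes (top) and the 11 fatty acid enzymes (bottom) in each of 8 cell classes, with 1 point per library, the mean as a bar and the SD as a whisker (n = 3). The sterol sums of the diets do not overlap in B cells, monocytes and macrophages and neutrophils, and the fatty acid sums overlap in B cells because MCDHFD replicate 3 lies with the ND libraries.

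Summed over the 18 sterol enzymes, B cells held 220, 244 and 209 CPM on ND and 144, 149 and 184 CPM on MCDHFD. Monocytes and macrophages held 353, 360 and 240 CPM against 147, 179 and 163 CPM, and neutrophils 199, 203 and 147 CPM against 130, 112 and 81.8 CPM. In these 3 classes the diets did not overlap. In CD8 T cells the sums were 188, 218 and 193 CPM against 181, 176 and 280 CPM, and in CD4 T cells 276, 402 and 250 CPM against 243, 206 and 368 CPM. Fatty acid enzymes in B cells summed to 368, 402 and 409 CPM on ND and 536, 529 and 395 CPM on MCDHFD, most of which was Scd1. Erythroid cells, with 14 to 42 cells per library, were not tested for diet; their sterol sums were 340, 328 and 279 CPM against 305, 253 and 389 CPM.

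Whether the diet difference varied between the 8 classes was tested with an interaction term in 1 fit of all class sums. Of 34 members tested, 10 were called in edgeR, against 11.8% of 13040 genes. They were Fdps (adjusted p = 9.97e-05), Cyp51 (2.45e-04), Idi1 (0.00131), Srebf2 (0.00735), Fdft1 (0.0103), Stard4 (0.0133), Sqle (0.0164), Msmo1 (0.0219), Scd2 (0.0220) and Elovl5 (0.0347). For Cyp51 the separate fits gave -0.91 in B cells, -1.36 in monocytes and macrophages, -0.30 in CD4 T cells and 0.40 in CD8 T cells. For Srebf2 they gave -0.40 in B cells, -0.89 in neutrophils and 0.23 in CD8 T cells. Scd1 was not called (adjusted p = 0.140), with positive differences in all 4 classes where it was tested. Without ND replicate 1 or without MCDHFD replicate 1 the count was 3, without ND replicate 2 or without MCDHFD replicate 2 it was 6, and it was 4 when cells of several definitions were kept.

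Apart from diet, each class was set against the mean of the other 7 in a fit with a term for each library. Large shares of all genes were called in these comparisons, so each member count is given beside them. In B cells 7 members were higher and 8 lower, against 36.5% and 24% of 12126 genes. Scd1 led them, with 191 to 326 CPM in B cells against 0 to 32.8 CPM in any library of the other classes (log2 difference 5.74, SE 0.16, edgeR adjusted p = 1.98e-32). B cells are part of the mean against which every other class was set. A lower Scd1 in those classes therefore partly restates its level in B cells. Srebf2 was also higher in B cells (1.06, SE 0.09), whereas Fads1 (-3.10), Acss2 (-1.66), Elovl6 (-1.02) and Fdps (-0.87) were lower, each with edgeR adjusted p at or under 5.92e-05. Elovl6, which extends palmitate to stearate, was at 27.2 to 118 CPM in NK cells (2.84, SE 0.15), and the other members higher there, named after their values were seen, were Acss2 (1.54), Fasn (0.74), Acly (0.53) and Scd2 (0.51). Of 16 sterol enzymes tested in NK cells, 6 were lower, 0 higher and 10 not called. Among the lower ones, Idi1 had 0 to 4.97 CPM (-2.41, SE 0.40), Fdps differed by -1.90 and Cyp51 by -1.77. The fatty acid enzyme Fads1 differed by -1.61. Sqle had 1 UMI in each of 2 NK libraries and none in the other 4, so its fitted difference is not given. In NK cells 5 members were higher and 9 lower, against 24.6% and 17.3% of genes.

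CD4 T cells had 20 members higher and 2 lower, against 31.7% and 21.3% of genes, and all 6 sensing and transfer genes were among the higher ones. Sqle led them (1.41, SE 0.28), followed by Cyp51 (1.14), Lss, the lanosterol synthase (1.09), Elovl5 (1.00) and Dhcr7, which completes cholesterol (0.83), while Scd1 was lower (-1.35). The mean of the others includes Sqle in NK cells, and Sqle, Lss and Fads1 in neutrophils, where UMIs were too few for a fold. The sizes of the Sqle, Lss and Fads1 differences in this paragraph depend on those near-empty sums. CD8 T cells had 13 higher and 4 lower, against 34.7% and 25%, with Elovl5 (1.18, SE 0.10), Lss (0.90, SE 0.25), Elovl6 (0.88), Acss2 (0.83) and Fasn (0.75) higher and Scd1 lower (-1.37, SE 0.30). Dendritic cells had 16 higher and 3 lower, against 25.6% and 16.3%. Idi1 (1.70, SE 0.24), Sqle (1.56, SE 0.40), Cyp51 (1.47, SE 0.28) and Fads1 (1.86, SE 0.34) were higher there, and Acss2 was lower (-1.63). Fads2 was called higher too, on 1 to 7 UMIs per dendritic library. Their Idi1 levels of 27.7 to 49.1 CPM exceeded every library of B cells, T cells and NK cells.

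Erythroid cells, with a median of 20141.5 to 68142 UMIs per cell, had 13 members higher and 10 lower, against 34.5% and 41.8%. From 42.9% to 90.9% of erythroid cells per library had a Mki67 UMI, and the part of cell division in these differences was not tested. Fads2 and Fads1, the desaturases of polyunsaturated fatty acids, led the higher ones. Fads2 was at 26.7 to 59.7 CPM with 16 to 77 UMIs per library, and no library of CD8 T cells, NK cells or neutrophils had a Fads2 UMI, so its fitted difference of 7.71 (SE 0.34) depends on the prior count. Fads1 was at 14.2 to 30.2 CPM (2.91, SE 0.23) and Sqle at 10.6 to 28.7 CPM (2.07, SE 0.29). The sizes of these differences also depend on near-empty sums in other classes, such as the neutrophil sums given below. Elovl5 (-2.03), Hmgcs1 (-1.46), Scd1 (-1.47) and Mvd, which decarboxylates mevalonate diphosphate (-2.28), were lower. For Scd1, here and in the monocytes and macrophages below, the mean of the others includes the high B cell level. Neutrophils had 3 higher and 17 lower, against 33.2% and 37.3%. Elovl6 (-3.73), Fasn (-2.62) and Acaca (-1.80) were lower there. Lss, Fads1 and Sqle were called lower on 1, 4 and 6 UMIs in all neutrophil sums, too few for a fold. The 3 higher members, named after their values were seen, were Sc5d, a sterol desaturase (1.75), Msmo1 (0.85) and Acly (0.26). Fasn was at 0 to 3.81 CPM in neutrophils and 0 in 2 of 6 libraries. Monocytes and macrophages had 5 higher and 8 lower, against 34.1% and 25.2%, with Fads1 (1.18), Insig1 (1.14) and Mvd (0.85) higher and Fasn (-1.24), Scd1 (-0.91) and Sc5d (-0.74) lower. That count was 13 in all and 8 without MCDHFD replicate 1, where Scd1 (edgeR adjusted p = 0.0697) and Sc5d (0.0529) were not called. Without MCDHFD replicate 2, Scd1 (0.0621) and Mvd (0.0517) were not. In erythroid cells Scd1, and in NK cells Fads1, were not called without MCDHFD replicate 1 (0.113 and 0.0568). Me1, the malic enzyme, had 5 UMIs over all classes and libraries and was tested nowhere.

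**Figure D4:**
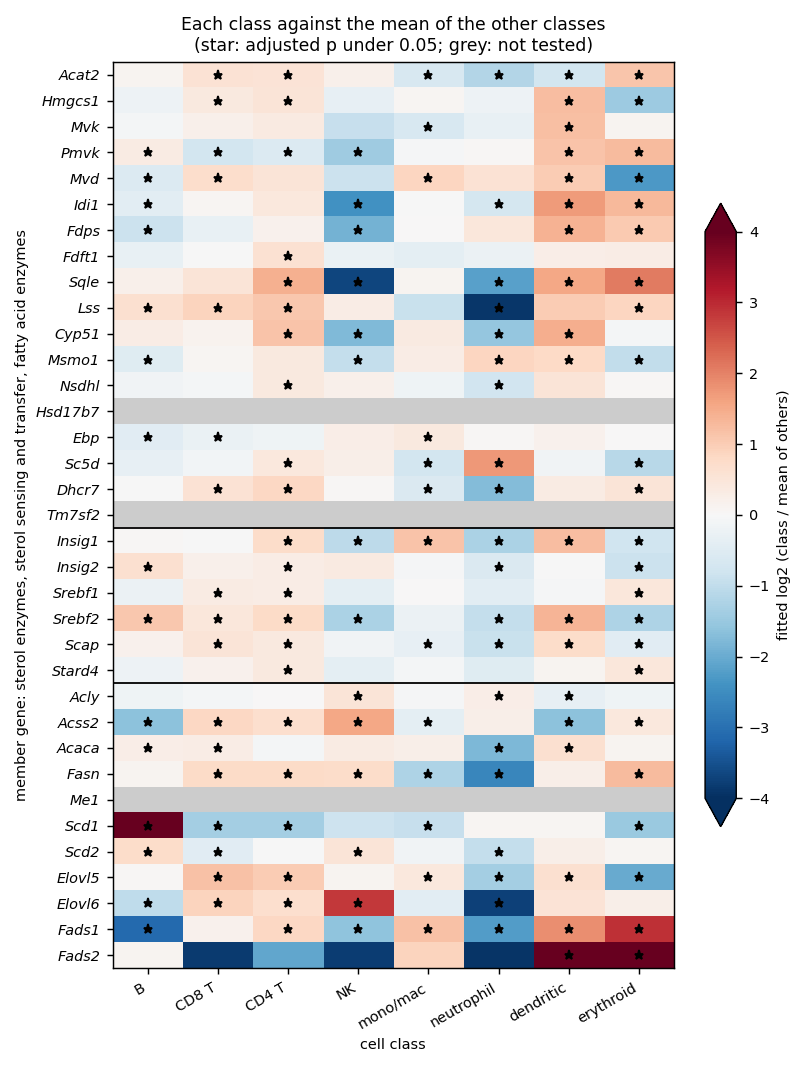
Fitted log2 difference of each class from the mean of the other 7 (colour) for the 35 members (rows) in 8 classes (columns); stars mark an edgeR adjusted p under 0.05 and grey marks genes not tested. Scd1 in B cells (5.74), Elovl6 in NK cells (2.84) and Fads1 and Fads2 in erythroid cells (2.91 and 7.71) stand out, and the dendritic column is mostly red; colours saturate at 4 in either direction.

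B cells with a Mki67 UMI, a marker of dividing cells, were compared with the other B cells of the same library. They made up 2.88%, 3.20% and 1.83% of B cells on ND and 1.24%, 1.46% and 0.858% on MCDHFD, from 11 to 114 cells. Of 34 members tested, 8 were higher and 4 lower, against 17.2% and 20.3% of 11745 genes. The sterol enzymes had a median of 0.42 beside -0.13 over all genes, and 4 of 18 rose. Fdps was at 48.1, 40.7 and 45.9 CPM (ND) and 37.2, 41.4 and 39.6 CPM (MCDHFD) in Mki67-positive cells, and at 18.9 to 27.6 and 8.83 to 15.5 CPM in the others. It rose by 1.54 (SE 0.21, edgeR adjusted p = 1.10e-04) and was higher in 6 of 6 libraries. Idi1 rose by 1.13 (SE 0.24, edgeR adjusted p = 0.00265) and was higher in 5 of 6 libraries; in MCDHFD replicate 3 it rested on 1 UMI. Insig1 (0.95, SE 0.29), Ebp (0.84, SE 0.16), Cyp51 (0.80, SE 0.28) and Scd2 (0.78, SE 0.20) rose as well, of which Ebp and Cyp51 are named after their values were seen. Insig1 was not called without MCDHFD replicate 2 (edgeR adjusted p = 0.0742), nor Cyp51 without ND replicate 1 (0.232), ND replicate 3 (0.0533) or MCDHFD replicate 2 (0.119).

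Scd1 moved the other way, at 83.9, 124, 119, 156, 101 and 84.2 CPM in Mki67-positive cells of ND replicates 1 to 3 and MCDHFD replicates 1 to 3, against 200 to 334 CPM in the other B cells. It fell by 0.99 (SE 0.13, edgeR adjusted p = 6.12e-05), in 6 of 6 libraries. Insig2 fell by 0.78 (SE 0.17), Elovl5 by 0.53 (SE 0.17) and Srebf2 by 0.33 (SE 0.11); Insig2 and Elovl5 are named after their values were seen. Elovl5 was not called without ND replicate 1 or ND replicate 3 (edgeR adjusted p = 0.124 and 0.102), nor Srebf2 without any 1 ND library or MCDHFD replicate 1 (0.114 to 0.307). Fads1 and Fads2 were called higher on few molecules: Fads1 had 5, 4, 6, 0, 1 and 0 UMIs and Fads2 had 2, 3, 4, 2, 1 and 1 UMIs in the 6 Mki67-positive sums. Of 4 sterol excess genes tested, all 4 were lower, with Abca1 falling by 1.32 and Mylip by 1.32 (SE 0.18 and 0.11).

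Depth and other RNA moved with this split. Mki67-positive B cells had a median of 11805 to 17295 UMIs, the others 3569 to 5835. Plasma cell markers summed to 6106 to 24274 CPM against 774 to 3718 CPM, and neutrophil markers to 6015, 3602 and 41.2 CPM on ND and 33.7, 25.2 and 1431 CPM on MCDHFD. Their part in the differences was not tested. Without the 5% deepest B cells of each library, 54, 26 and 26 Mki67-positive cells were left on ND and 18, 20 and 4 on MCDHFD. Then 1 member was called, Elovl5 (-1.05), and Fdps (-0.22), Idi1 (-0.07) and Insig1 (-0.03) had fitted differences at or below 0.

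**Figure D5:**
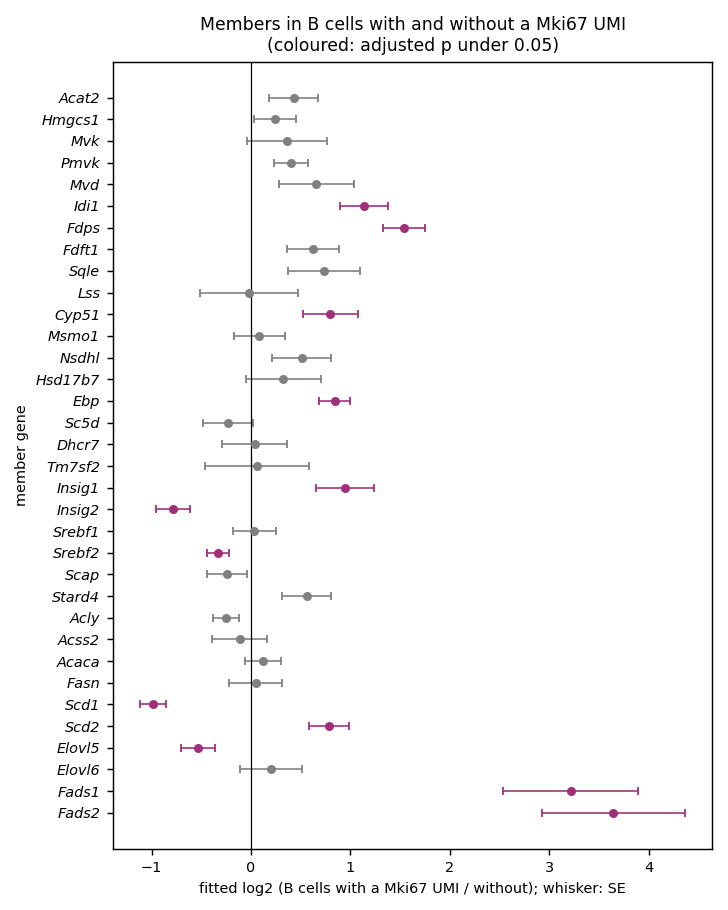
Fitted log2 difference between B cells with and without a Mki67 UMI for the 34 members tested (points) with its SE (whiskers); coloured points have an edgeR adjusted p under 0.05. Fads1, Fads2, Fdps and Idi1 lie farthest to the right and Scd1 farthest to the left.

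Cd93-positive B cells without Mki67 were set against Cd93-negative, Fcer2a-positive B cells; Cd93 marks immature B cells and also plasma cells, and Fcer2a marks follicular B cells. Of 31 members tested 1 was called, against 5.01% of 10219 genes higher and 2.39% lower. Scd1 was at 110, 140 and 153 CPM on ND and 94.6, 140 and 30.05 CPM on MCDHFD in Cd93-positive cells, and at 214, 225, 227, 334, 359 and 268 CPM in Fcer2a-positive cells. It was lower in 6 of 6 libraries and fell by 0.80 (edgeR adjusted p = 0.0149). Without the 5% deepest cells its difference was -0.30 (edgeR adjusted p = 0.489) and it was not called. Plasma cell markers summed to 13276 to 48058 CPM in the Cd93-positive sums and 254 to 510 CPM in the Fcer2a-positive ones (5 of 5 genes detected), and their part in the difference was not tested. MCDHFD replicate 3 had 8 Cd93-positive cells, and without MCDHFD replicate 1 or MCDHFD replicate 2 edgeR called 0 members (Scd1 adjusted p = 0.0687 and 0.0558; 5 and 7 members had an unadjusted p under 0.05), against 2 without MCDHFD replicate 3.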

How the data were processed

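Droplet single-cell RNA libraries of spleen were counted by the authors with Cell Ranger against mm10, per the submitters' processing notes, which name Cell Ranger 9.1.0 and Seurat 4.3.0, while the file headers name versions 9.0.1 (4 libraries, unfiltered barcode lists) and 7.2.0 (2 libraries, filtered lists). The deposited values are counts of UMIs per gene and barcode, not normalized. The 35 members and all lists were chosen with earlier results of these data known. The same holds for the barcode list form as a term of the diet models. Those earlier results had shown ND replicate 2 and MCDHFD replicate 3 apart from the other libraries.

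Cells with at least 1000 UMIs and at most 10% mitochondrial UMIs were kept (3278 to 6625 per library). Cells were placed in 8 classes by the marker UMIs given in the text, cells of several classes were left out as possible doublets, no doublet caller was run, and UMIs were summed per library and class. Cells are not replicates: sums were tested across libraries with edgeR 4.0.16 (quasi-likelihood test, TMM normalization, expression filter, R 4.3.3), over all genes, with Benjamini-Hochberg adjustment and a threshold of 0.05. Diet models held barcode list form and diet, and a class needed at least 20 cells in every library, which erythroid cells lacked. Class, Mki67 and Cd93 models held a term per library, and the interaction was an F test over classes. SEs were derived from the log2 fold change and its F statistic. DESeq2 1.42.0 was an alternative, and the edgeR fits of some of the comparisons were tested on simulated counts. CPM values are UMI sums scaled to 1000000 and compare 1 gene between groups, not genes with each other.

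Genes were named where they were called for diet (up to 8 per class by p), where they belonged to a fixed set (Hmgcs1, Idi1, Sqle, Fdft1, Insig1, Srebf1, Srebf2, Stard4, Acaca, Acly, Fasn, Scd1, Scd2), or where they were among the 6 largest called differences of a class, Mki67 or Cd93 comparison. Of other pathway genes, up to 4 per class by p were planned. In neutrophils all 9 called for diet are named. Promoter stretches came from RefSeq (GRCm38.p6), read on both strands. Alternatives were upper-quartile scaling, no expression filter, cells of several classes kept, the 5% deepest cells left out, at least 2000 UMIs with at most 5% mitochondrial UMIs, the 4 unfiltered libraries alone, diet alone, a replicate block, DESeq2, and each library left out; 2 fits in B cell subsets were added after seeing the data.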

Additional observations from a re-analysis of the deposited data

Results flagged for a closer look

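The diet difference varied between the 8 cell classes for 10 members, by the F test of the interaction term in edgeR with Benjamini-Hochberg adjustment over 13040 genes. Fdps had the smallest adjusted p (9.97e-05), with separate log2 differences of -2.25 in neutrophils, -2.20 in monocytes and macrophages, -1.01 in B cells and -0.06 in CD4 T cells. Cyp51 followed (adjusted p = 0.000245), at -1.36 in monocytes and macrophages and 0.40 in CD8 T cells. Idi1 (0.00131) was at -2.02 in monocytes and macrophages and -0.04 in CD4 T cells. Srebf2 (0.00735) was at -0.89 in neutrophils and 0.23 in CD8 T cells. Fdft1 (0.0103) was at -1.35 in monocytes and macrophages and 0.24 in CD8 T cells. Stard4 (0.0133) was at -1.12 in monocytes and macrophages and -0.10 in CD8 T cells. Sqle (0.0164) was at -2.42 in monocytes and macrophages and 0.22 in CD4 T cells. Msmo1 (0.0219) was at -0.90 in B cells and 0.29 in CD8 T cells. Scd2 (0.0220) was at -1.70 in neutrophils and -0.05 in B cells. Elovl5 (0.0347) was at -0.60 in neutrophils and 0.29 in B cells. The classes share their libraries, and fewer than 20 cells stood behind 1 erythroid sum in that fit.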

How the results depend on the processing

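Counts here are members called at an edgeR adjusted p under 0.05, with members at an unadjusted p under 0.05 in brackets where the count is 0. Diet in B cells (9 called) gave 14 without the expression filter, where 1792 of 21846 genes of any kind were called. It gave 5 to 12 when 1 library was left out. It gave 0 [8] with diet as the only term and 0 [6] with a replicate block in place of the list form; edgeR then called 0 of 12978 and 0 of 13731 genes of any kind. The 5 called members came without ND replicate 3.

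The replicate block also gave 0 [0] in CD4 T cells, 0 [9] in monocytes and macrophages and 0 [2] in neutrophils. Same-numbered libraries did not deviate together: the correlations of their deviations were 0.57, -0.74 and -0.76 for numbers 1 to 3 in B cells and 0.51, -0.66 and -0.62 in CD8 T cells. The numbers were therefore not treated as pairs.

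In CD8 T cells (0 called) the 4 unfiltered libraries gave 4, and leaving out 1 library 0 to 4. In CD4 T cells (1 called) no filter and the 4 unfiltered libraries each gave 2. Genes of any kind called in these fits numbered 712 of 18533 and 630 of 10004. Upper-quartile scaling [7], cells of several definitions kept [7], the 5% deepest cells left out [6], DESeq2 [2] and diet alone [1] each gave 0, and leaving out 1 library 0 to 2. In monocytes and macrophages (2 called) no filter gave 8, the deepest cells left out 5, the 4 unfiltered libraries 0 [12] and diet alone 0 [15]. Without the filter 766 of 18213 genes of any kind were called there, and 156 of 9720 without the deepest cells. Leaving out 1 library there gave 0 to 3, with 0 [11 to 14] for each library but ND replicate 3. In neutrophils (2 called) no filter gave 6, the deepest cells left out 4, the 4 unfiltered libraries 5, and several definitions, DESeq2 and diet alone 1 each; leaving out 1 library gave 0 to 6. Genes of any kind called in neutrophils numbered 2135 of 15930 without the filter and 1739 of 6384 without the deepest cells. With the unfiltered libraries they numbered 2292 of 7017. In dendritic cells (0 called) no filter gave 1, and NK cells kept 0 under every alternative run. Diet alternatives for erythroid cells were not run.

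Each count of a class against the others stayed within 1.5 times its reported value under every alternative run, except monocytes and macrophages (13 called), with 8 to 14 when 1 library was left out. For Mki67 (12 called), the deepest cells left out gave 1, and turned Fdps to -0.22, Idi1 to -0.073 and Insig1 to -0.031. For Cd93 (1 called), several definitions gave 4, the deepest cells left out 0 [2], and 1 library left out 0 to 2. With several definitions kept, 1552 of 11175 genes of any kind were called for Cd93. The interaction (10 called) gave 4 with several definitions and 3 to 9 with 1 library left out. The causes were not tested. Over all named genes and alternatives, 165 of 454 diet calls, 9 of 621 class calls, 28 of 207 Mki67 calls and 9 of 26 Cd93 calls were lost with the same direction. Class sums rested on as few as 14 erythroid, 28 dendritic and 33 NK cells per library, which limits their precision.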
